A study of Saccharomyces cerevisiae with 222 samples.

Results

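The nuclear genes for the proteins of the mitochondrial ribosome were followed through 4 RNA-seq experiments on the budding yeast transcription factor Ume6. The members are the genes of the mitotic count table whose symbol begins with MRPL, MRPS, MRP or RSM followed directly by a digit, and they were matched in the other tables by their SK1 identifier. This gave 67 of the 5818 genes in the tables, of which 38 encode proteins of the large subunit and 27 proteins of the small subunit by their universal ribosomal protein names. MRP8 and RSM22 were matched by symbol but carry no such name: RSM22 encodes a methyltransferase-like protein, and MRP8 is not counted among the ribosomal proteins by current annotation. All 67 passed the filter on low counts in each experiment.

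The mitochondrial ribosome translates the few proteins that mitochondrial DNA encodes, nearly all of them core subunits of the respiratory chain and the ATP synthase. Apart from its RNAs and Var1, its parts are encoded in the nucleus, made in the cytosol and imported, and its small subunit decodes the mRNA while its large subunit forms the peptide bond. Budding yeast need respiration to sporulate, and genes for mitochondrial translation are known to be expressed at lower levels in cells that ferment glucose than in cells that respire.

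Ume6 represses early meiotic genes during mitotic growth and, once bound by the activator Ime1, takes part in their induction. The study asked how the transcriptome responds to loss of Ume6 in dividing and in starved cells, and whether bringing Ime1 or a foreign activation domain to Ume6 is enough to start the meiotic program. All strains were SK1, each of the 74 conditions had 3 libraries, and poly-A RNA of whole cultures was sequenced. By the paper's strain list and legends, the mitotic strains were MATa haploids and those of the other experiments MATa/alpha diploids.

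In the mitotic experiment (42 libraries) all cultures grew in rich glucose medium. Control cells carried UME6-AID-3V5 and LexA-ER-B112, and depletion cells carried in addition 4xLexO-TIR, the receptor that lets auxin degrade the tagged protein. Both received β-estradiol at −30 min and 200 µM auxin at 0 min and were sampled at −30, 0, 15, 30, 60 and 120 min, and wild type (UME6) and ume6Δ cells were taken once in log phase, before any treatment by the study's methods. In the meiotic experiment (36 libraries) control cells carried UME6-AID-3V5 and lexA-ER-GAL4AD and depletion cells also 8xlexO-OsTIR. Both carried IME1 and IME4 under the copper-inducible CUP1 promoter, which the methods give. They received 5 nM β-estradiol and 200 µM auxin at 0.5 h in sporulation medium and 50 µM CuSO4 at 2 h, and were sampled at those 2 times and at 2.5, 3, 4.5 and then 6 h. Per the methods, depletion was less complete there than in mitotic cells.

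In the rescue experiment (96 libraries) IME1 or sfGFP-IME1 was combined with UME6, UME6-3V5, UME6(T99N)-3V5 or UME6(T99N)-3V5-aGFP at 0, 2, 4 and 6 h in sporulation medium. The T99N change disrupts the binding of Ime1, and aGFP is a nanobody that holds a protein fused to sfGFP. In the rescue results "wild type" is IME1; UME6, "untethered" is IME1; UME6(T99N)-3V5-aGFP and "tethered" is sfGFP-IME1; UME6(T99N)-3V5-aGFP. In the activation domain experiment (48 libraries) all strains carried UME6(T99N)-3V5-aGFP and a deletion of IME1 at its own locus, and expressed IME1, sfGFP-IME1, B112 or sfGFP-B112 from the IME1 promoter at HIS3, sampled at the same 4 times. B112 is a peptide from Escherichia coli that works as an activation domain in yeast and was given a nuclear localisation signal.

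The estimated counts per library came to 4603815 to 20789730 in the mitotic, 4322697 to 12330746 in the meiotic and 6456844 to 23448759 in the activation domain experiment, and to 44189 to 14452545 in the rescue experiment. The shallowest rescue library, with 44189, is of a strain that enters no comparison here, and 2 rescue libraries of IME1; UME6-3V5 whose count and TPM tables matched only when exchanged were left out. Of 222 pairs of replicates, 0 held identical values. UME6 mRNA was at 36.5, 34.9 and 34.99 TPM (transcript share of a library, length-corrected and scaled to a common total) in wild type and at 0.0510, 0.109 and 0.557 in ume6Δ, while the degron acts on the protein and leaves its mRNA. In the activation domain experiment, replicate 2 of the IME1 strain at 0 h stood apart: its members' median was 117 TPM against 33.7 and 46.4 in replicates 1 and 3, with IME1 at 555 TPM against 2022 and 1387. The counts and fold changes of the comparison that uses this library are given with and without it.

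The members differed in level between experiments and between genes, and the median of all genes is not set beside them. The median over members of the experiment mean was 129 TPM in the mitotic, 76.7 in the meiotic, 63.9 in the activation domain and 43.2 in the rescue experiment. Medium, ploidy and mating type all differ between the mitotic and the other experiments and cannot be told apart. The 67 genes together took 0.716% to 1.43% of all TPM in mitotic libraries, where the cytosolic ribosomal protein genes had a median share of 25.4%, and 0.497% to 0.822%, 0.297% to 0.695% and 0.388% to 1.50% in the meiotic, rescue and activation domain libraries. Over all libraries the highest means were those of MRP8 (706 TPM), MRPS12 (261, the uS12m protein of the decoding centre), MRPS16 (256), MRPL37 (204) and MRPL39 (202). The lowest were RSM22 (25.7), MRPL15 (33.7), MRPS5 (34.4), MRPL11 (35.0) and MRP13 (39.5). The order was not the same in each experiment, most plainly for MRP8, with a mean of 100.4 TPM in mitotic libraries and 479, 843 and 1137 in the meiotic, rescue and activation domain libraries.

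**Figure D1:**
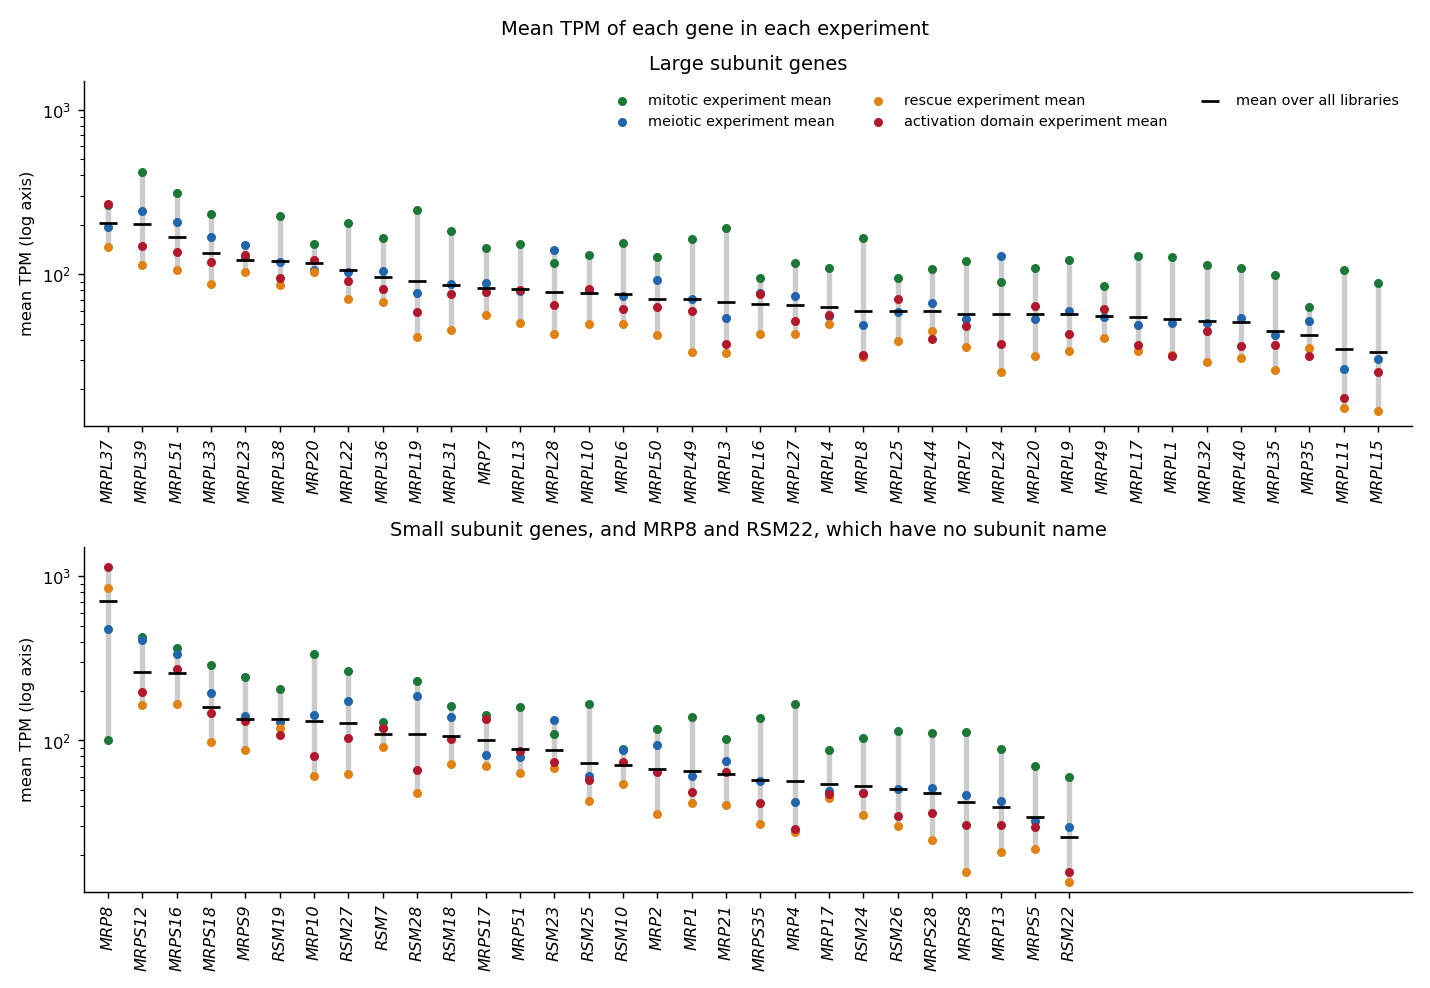
Mean TPM (log axis) of each of the 67 genes in each of the 4 experiments, by subunit; coloured points are experiment means, grey bars their range and black ticks the mean over all libraries. Most genes had their highest experiment mean in the mitotic experiment, while MRP8 was lowest there, at a mean of 100.4 TPM against 1137 in the activation domain experiment.

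Across the 74 conditions most members moved together. The Spearman correlation of a member's mean TPM per condition with the median of the other members had a median of 0.888, was over 0.8 for 52 of the 67 and under 0.5 for 1, MRP8, at −0.758. These conditions share experiments, media and cultures over time, so the values describe likeness only. MRPS9, a protein of the small subunit head, was most like the rest (0.972), and RSM10 (0.629), MRPL23 (0.644) and MRP20 (0.655) came lowest after MRP8. MRPL37 and MRPS17 were each other's closest match, at 0.931. MRPL8 was closest to MRPL39, at 0.941.

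**Figure D2:**
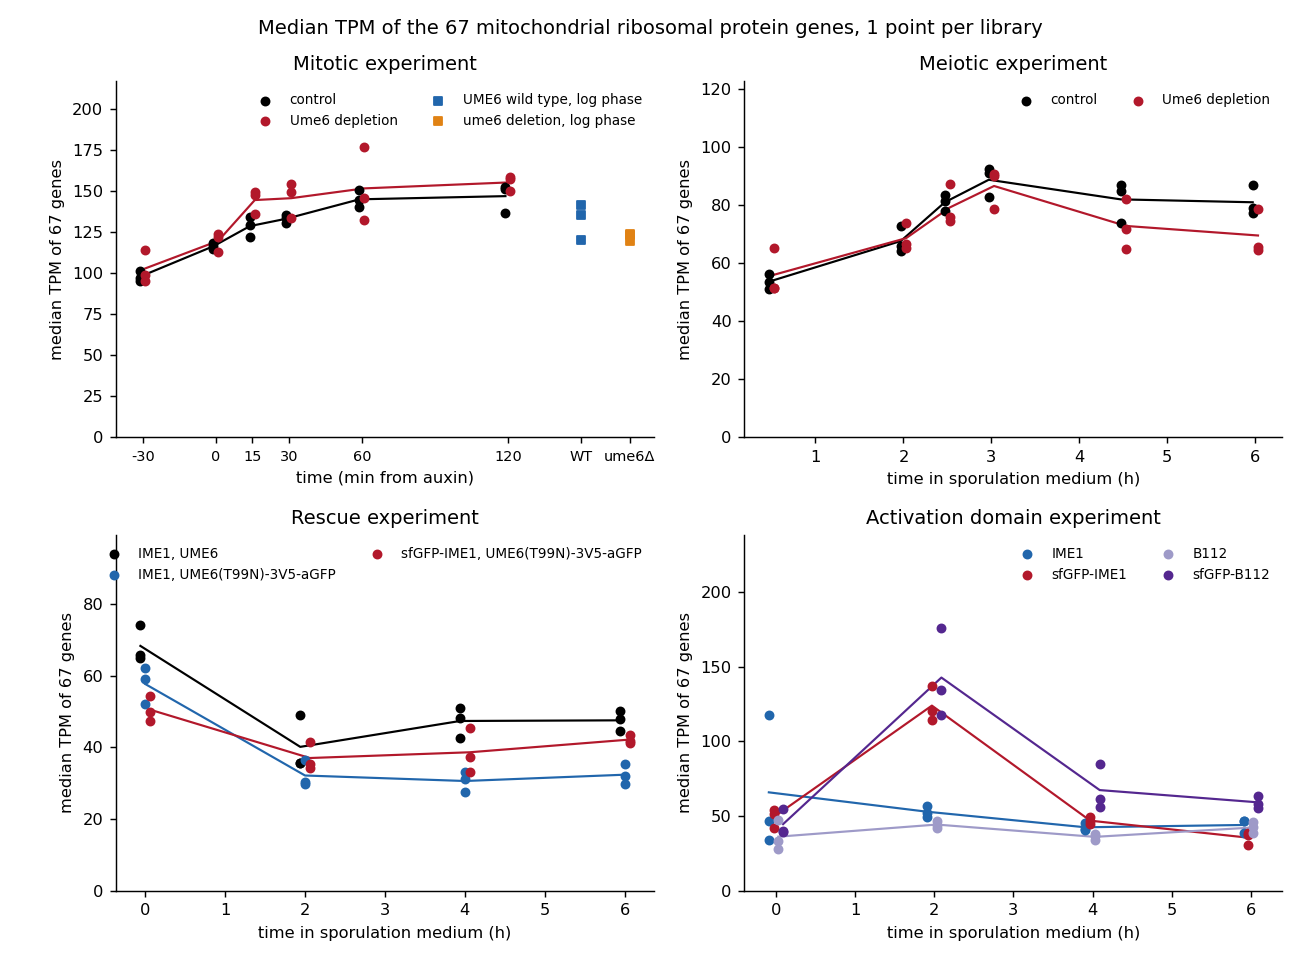
Median TPM of the 67 genes in each library (points) and mean of the 3 libraries (lines) against time, for the 4 experiments; squares are the wild type and ume6Δ cultures. At 2 h in the activation domain experiment the 3 sfGFP-B112 libraries lay at 176, 117 and 135 TPM and the 3 sfGFP-IME1 libraries at 114, 120 and 137, above the 6 untagged libraries, which reached at most 57.0. The median change in TPM had the opposite sign to that in TMM-scaled counts for 6 against 2 h in wild type, 2.5 against 2 h in the meiotic control, depletion at 2.5, 3 and 4.5 h in the meiotic experiment, the tether at 2 h, sfGFP-IME1 at 4 and 6 h and sfGFP-B112 at 0 h.

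**Figure D3:**
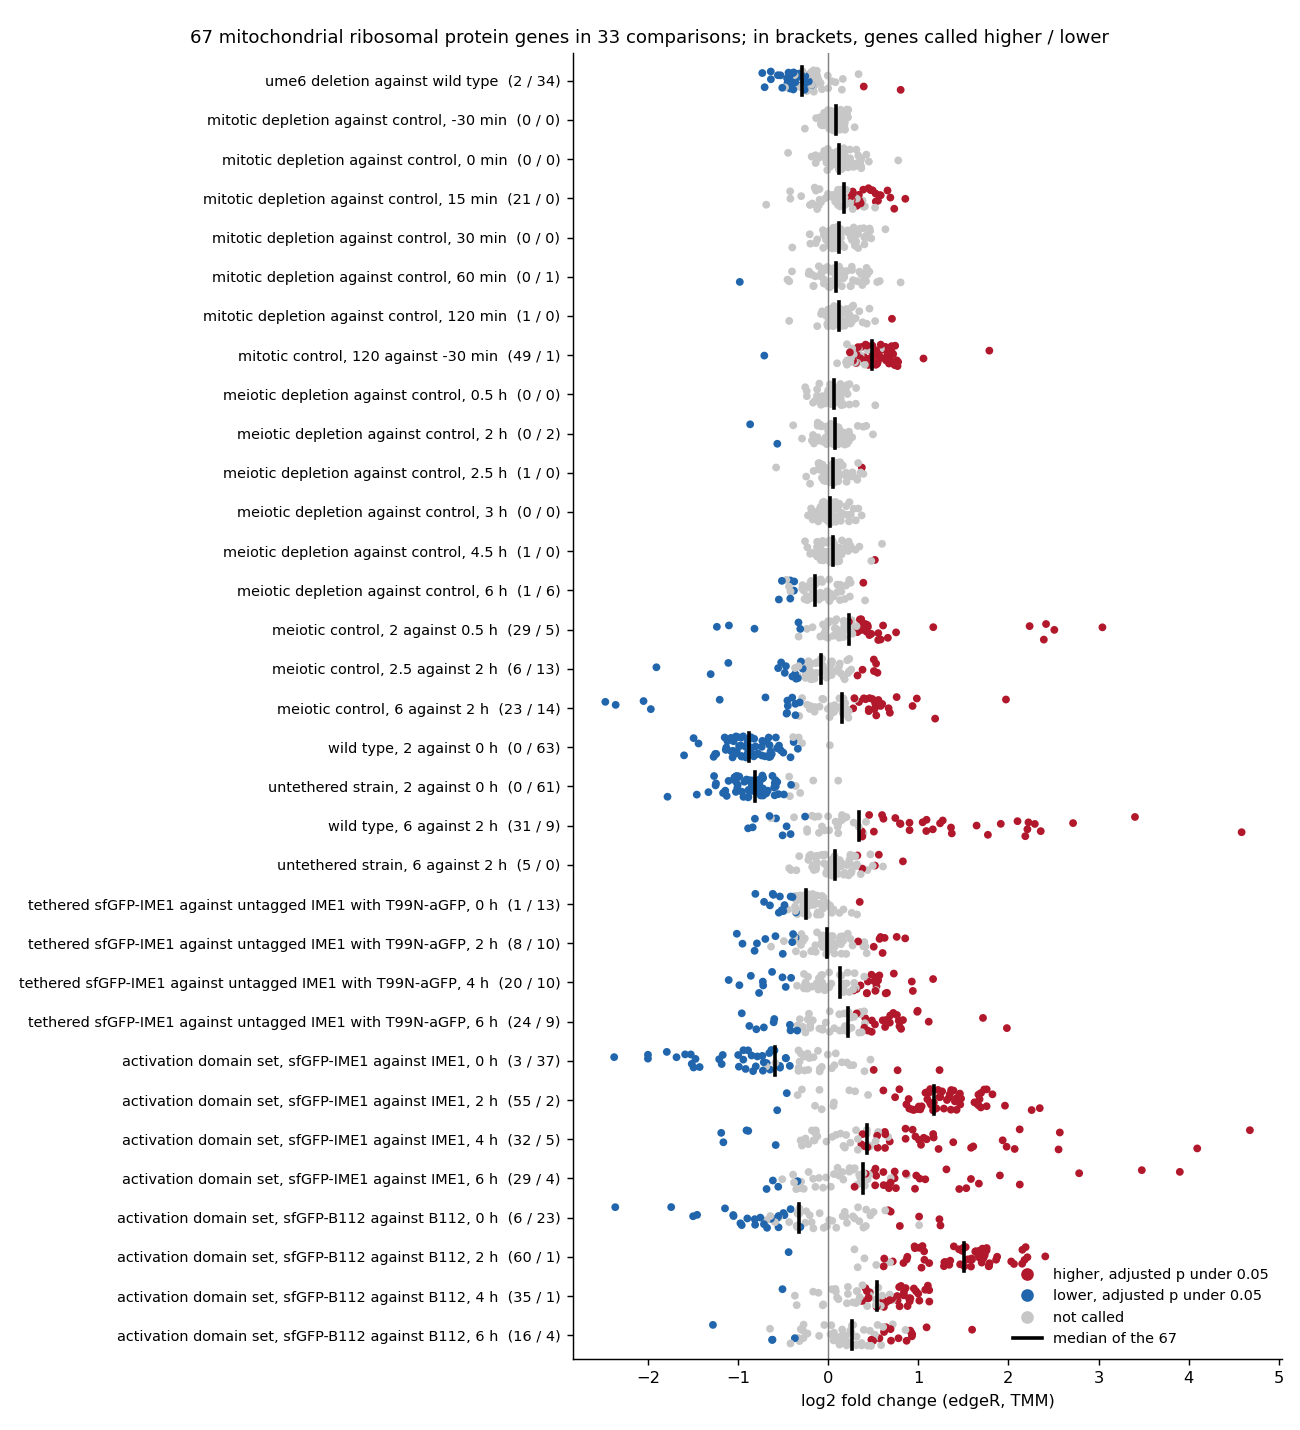
Log2 fold changes from edgeR with TMM scaling (x axis) of the 67 genes in each of 33 comparisons, with the number called higher and lower at an adjusted p under 0.05 in brackets; black bars are medians. The largest shifts of the whole group are the 0 to 2 h falls in wild type and untethered cells, with medians of −0.88 and −0.82, and the rises with sfGFP-IME1 and sfGFP-B112 at 2 h, with medians of 1.17 and 1.51. Scaling by library totals in place of TMM keeps the direction of these 4 medians and turns that of wild type, 6 against 2 h, to −0.01.

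In ume6Δ cells in log phase, genes of the mitochondrial ribosome were modestly lower than in wild type. In edgeR's quasi-likelihood test with Benjamini-Hochberg adjustment over all genes tested, which gives every count and adjusted p below, 34 of the 67 were lower and 2 higher, with a median log2 fold change of −0.29. Over all 5488 genes tested, 27.8% were lower and 27.5% higher. The median TPM of the members was 123, 123 and 119 in ume6Δ and 141, 135 and 119.9 in wild type, and wild type replicate 3 fell within the ume6Δ range. The large subunit had 17 genes lower and 1 higher, and the small subunit 16 lower and 1 higher. The count fell to 20 without wild type replicate 1 and to 21 when only these 2 groups entered the fit. The paper calls the replicates biological, but whether they came from separate cultures is not in the labels. The p-values measure the spread between these samples. In bulk RNA, fewer cells of a kind and less RNA per cell cannot be told apart.

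RSM25, which encodes the small subunit protein mS23, went against the rest. It was at 290.0, 282 and 282 TPM in ume6Δ and 158, 159.8 and 142 in wild type (edgeR log2 fold change 0.80, SE 0.09, adjusted p = 3.32e-09), with all ume6Δ libraries above all wild type ones. Its neighbours on either side, LYS12 and YIL092W, also rose, by log2 fold changes of 1.15 and 1.31, and whether reads or control are shared was not tested. MRPL4, which encodes the uL29m protein beside the exit of the peptide tunnel, was at 128, 124 and 129.8 in ume6Δ and 87.4, 75.8 and 110.0 in wild type (edgeR log2 fold change 0.39, SE 0.13, adjusted p = 0.013), and its call was lost without wild type replicate 1 (edgeR adjusted p = 0.0528) or replicate 2 (0.125).

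The genes with the largest falls in ume6Δ belonged to both subunits. MRPL38 (uL14m) was at 158, 162 and 144 TPM in ume6Δ and 253, 249 and 221 in wild type (edgeR log2 fold change −0.73, SE 0.09, adjusted p = 2.81e-08), without overlap. MRP10, a small subunit protein imported into mitochondria, had 267, 227 and 194 and 378, 351 and 274 (edgeR log2 fold change −0.64, SE 0.17, adjusted p = 0.00185). MRPL28 (mL40) had 95.9, 93.6 and 90.3 and 148, 149.5 and 109 (edgeR log2 fold change −0.64, SE 0.14, adjusted p = 1.77e-04). In each of these the lowest wild type library lay above the highest ume6Δ library. MRP7, the bL27m protein near the peptidyl transferase centre, was at 123, 137 and 153 and 159, 161 and 141 (edgeR log2 fold change −0.25, SE 0.08, adjusted p = 0.00754), with overlapping groups.

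In dividing cells depleted of Ume6 the members' median lay slightly above that of the control at each of the 6 times, those before auxin could act included, and members were called in number at 15 min alone. In order of time the median log2 fold changes were 0.09, 0.12, 0.17, 0.12, 0.09 and 0.11, with 52, 50, 50, 57, 47 and 58 of the 67 members above 0. Whether the times differ from each other was not tested. At −30 min, before auxin, and at 0 min, 0 of the 67 were called by edgeR, also 0 by DESeq2. By adjusted p the background was 0.182% higher and 0.0547% lower at −30 min, and 0.346% and 0.164% at 0 min. At an unadjusted edgeR p under 0.05 there were 0 and 7 members, for which no share over all genes is given. At 15 min 21 were higher and 0 lower, where 10.2% of all genes tested were higher and 10.5% lower. The members' median TPM at 15 min was 148, 136 and 149 in depletion and 129, 122 and 134 in control cells, the lowest depletion library lying above the highest control library. This count rested on all 6 libraries: it was 1 without depletion replicate 1 or control replicate 2, 5 without depletion replicate 3, 6 without control replicate 1, 8 without control replicate 3 and 14 without depletion replicate 2. With only these 2 groups in the fit it was 35 higher and 5 lower, and with library totals 31 higher and 0 lower. Library totals moved the median of all genes by 0.16 here, and for the counts under other settings no share over all genes is given.

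The largest differences called at 15 min were in RSM27 (mS33), MRPL25 (mL59) and MRPS17 (uS17m). RSM27 was at 380.1, 346 and 361 TPM in depletion and 184, 192 and 203 in control cells (edgeR log2 fold change 0.86, SE 0.27, adjusted p = 0.0276). MRPL25 was at 134, 119 and 122 and 77.5, 67.8 and 72.3 (edgeR log2 fold change 0.73, SE 0.21, adjusted p = 0.0146), and MRPS17 at 198, 176 and 175 and 117, 100.4 and 111 (edgeR log2 fold change 0.69, SE 0.22, adjusted p = 0.0284). For all 3 genes the depletion libraries lay above the control libraries at 15 min. At 0 min, when auxin was added, RSM27 was at 177, 341 and 343 and 154, 166 and 178 TPM, MRPL25 at 76.4, 91.9 and 93.4 and 72.2, 67.7 and 63.4, and MRPS17 at 112.4, 158 and 151 and 105, 104 and 103. Their log2 fold changes there were 0.78, 0.36 and 0.42 (edgeR adjusted p = 0.48, 0.542 and 0.532), with all depletion libraries of MRPL25 and MRPS17 above the control libraries and 1 of RSM27 within their range. How much of the 15 min differences arose after auxin was not tested.

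At the later times few members were called, at medians close to that of 0 min. At 30 min 0 of the 67 were called by edgeR and 0 by DESeq2 (background by adjusted p 4.94% higher and 3.04% lower), and 12 were higher without depletion replicate 3. Another 30 min count, 18 members at an unadjusted edgeR p under 0.05, has no share over all genes beside it. At 60 min 1 was lower and 0 higher (background 1.88% and 4.08%), and at 120 min 1 was higher and 0 lower (background 3.61% and 1.99%). Without depletion replicate 3, 12 were called at 60 min and 3 at 120 min. The gene lower at 60 min was MRPS12, at 459, 454 and 311 TPM in depletion and 781, 801 and 841 in control cells (edgeR log2 fold change −0.98, SE 0.30, adjusted p = 0.0423). The gene higher at 120 min was RSM19, the uS19m protein of the small subunit head, at 349, 343 and 243 and 206, 200.0 and 185 (edgeR log2 fold change 0.71, SE 0.19, adjusted p = 0.0143). Neither pair of groups overlapped, but both counts became 0 without some single libraries.

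The larger change in the mitotic experiment was that of the control culture over time. From −30 to 120 min 49 members rose and 1 fell in the control, a median log2 fold change of 0.48, where 27% of all genes rose and 27.8% fell. Their median TPM went from 95.3, 101 and 96.8 to 152, 151 and 137, without overlap. The large subunit had 26 genes higher and 0 lower, and the small subunit 22 and 1. β-Estradiol, auxin and further growth all lie between these times and cannot be told apart.

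MRPS12 rose most in the control, from 193, 109.9 and 189.8 to 769.6, 356 and 737 TPM (edgeR log2 fold change 1.79, SE 0.31, adjusted p = 1.09e-05), and replicate 2 was the lowest library at both times. RSM28 (mS46) went from 116, 131 and 127 to 283, 306 and 245 (edgeR log2 fold change 1.06, SE 0.11, adjusted p = 4.45e-10), and MRPL49 (bL21m) from 100.5, 137 and 94.3 to 192, 237 and 175 (edgeR log2 fold change 0.78, SE 0.17, adjusted p = 3.44e-04). MRP7 rose by a log2 fold change of 0.56. The single gene that fell was MRP17, the bS6m protein of the small subunit, from 113, 79.8 and 90.6 to 70.8, 58.2 and 63.4 (edgeR log2 fold change −0.71, SE 0.16, adjusted p = 4.46e-04), and its groups did not overlap.

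In starved cells of the meiotic control strain, before IME1 was induced by copper, a handful of members changed by far more than the group. From 0.5 to 2 h 29 rose and 5 fell (background 30.9% higher and 35.5% lower), with a median of 0.23. With library totals the split was 40 higher and 3 lower. Their median TPM was 53.3, 51.1 and 56.1 at 0.5 h and 72.8, 64.1 and 65.6 at 2 h, without overlap. β-Estradiol, auxin and longer starvation all lie between these times and cannot be told apart. MRPL24, the bL28m protein, was at 28.1, 33.2 and 32.5 TPM at 0.5 h and 192, 329 and 337 at 2 h (edgeR log2 fold change 3.04, SE 0.24, adjusted p = 2.40e-12). MRPS12 was at 99.8, 98.3 and 111 and 624, 631 and 708 (edgeR log2 fold change 2.51, SE 0.20, adjusted p = 4.08e-12), and MRPL28 at 52.7, 54.7 and 51.02 and 299, 335 and 312 (edgeR log2 fold change 2.42, SE 0.14, adjusted p = 3.88e-15). RSM23, a small subunit protein related to human DAP3, and RSM28 rose by 2.39 and 2.24 on the log2 scale. These 5 genes stood well apart from the next, as the fold change plot shows, and the next was RSM22, with 1.17.

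Fewer genes fell in the same interval. RSM19 went from 148, 116 and 113 to 78.3, 45.7 and 57.1 TPM (edgeR log2 fold change −1.24, SE 0.18, adjusted p = 5.62e-07), and MRP8 from 900.4, 842 and 829 to 429, 479 and 434 (edgeR log2 fold change −1.10, SE 0.11, adjusted p = 1.54e-10). RSM10 (uS10m) went from 88.6, 74.6 and 78.2 to 58.96, 46.5 and 48.5 (edgeR log2 fold change −0.82, SE 0.13, adjusted p = 1.69e-06). All 3 were lower in every 2 h library than in any 0.5 h library. The other falls, in MRP20 (−0.31) and MRPS18 (−0.33), were not called with library totals. Over the same time 103 of the 104 cytosolic ribosomal protein genes rose, with a median log2 fold change of 2.93.

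In the first sample after copper 3 of the 5 genes with the largest rises had fallen again. From 2 to 2.5 h 6 members rose and 13 fell (background 26.5% and 33.4%, median −0.08), and library totals, which move the median of all genes by 0.29, turned this to 20 higher and 3 lower. RSM23 went from 296, 409 and 405 to 108, 129.7 and 118 TPM (edgeR log2 fold change −1.91, SE 0.12, adjusted p = 1.98e-14), RSM28 from 432, 402 and 516 to 202, 213 and 239.7 (edgeR log2 fold change −1.30, SE 0.13, adjusted p = 2.85e-10), and MRPL28 fell by 1.11 on the log2 scale. MRPL24 and MRPS12 were not called in this interval, with log2 fold changes of −0.06 and −0.34. The rises were small: MRPL7 (uL5m), MRPL9 (uL3m) and MRP2 (uS14m) had log2 fold changes of 0.55, 0.53 and 0.51.

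At 6 h against 2 h 23 members were higher and 14 lower (background 34.2% and 34.9%, median 0.16; with library totals 34 and 8). MRPL24 had returned to 51.3, 48.5 and 59.3 TPM, RSM28 to 94.00, 83.2 and 91.8, RSM23 to 95.2, 79.7 and 101 and MRPL28 to 86.7, 81.99 and 78.3, log2 fold changes of −2.47, −2.36, −2.05 and −1.97. RSM19 rose from 78.3, 45.7 and 57.1 to 255, 206 and 259 (edgeR log2 fold change 1.97, SE 0.18, adjusted p = 3.42e-11) while MRPS12 fell to 259, 343 and 264 (log2 fold change −1.20). MRPL23, the uL13m protein, rose from 109.6, 95.7 and 98.3 to 244, 227 and 232 (edgeR log2 fold change 1.19, SE 0.11, adjusted p = 6.35e-11), and RSM10 by 0.98. In each of these genes the 3 libraries of one time lay apart from the 3 of the other.

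**Figure D4:**
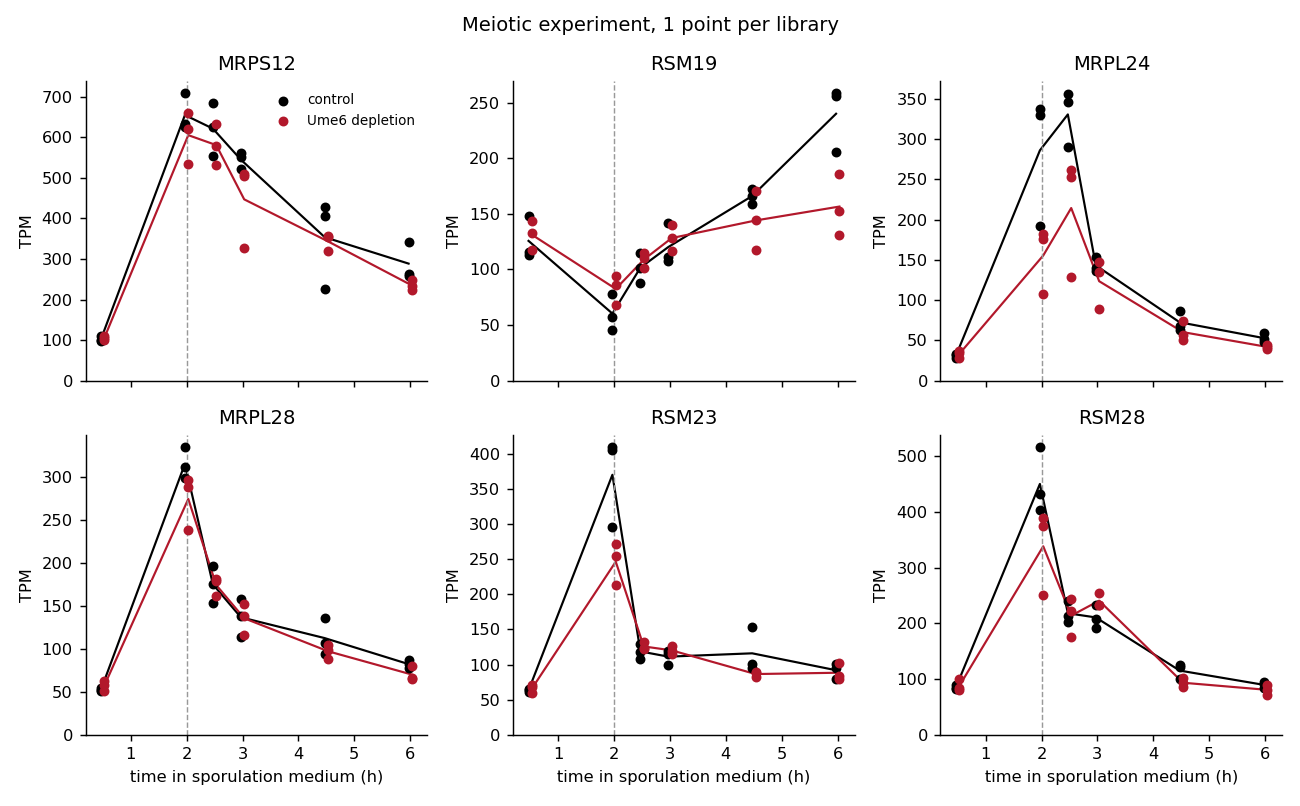
TPM of MRPS12, RSM19, MRPL24, MRPL28, RSM23 and RSM28 against time in sporulation medium in control and Ume6 depletion cells, with 1 point per library, lines through the means and a dashed line at the addition of copper. In both strains the means of MRPS12, MRPL28, RSM23 and RSM28 were highest at 2 h and that of MRPL24 at 2.5 h (331 TPM in the control, against 286 at 2 h), where its TMM-scaled log2 fold change from 2 h was −0.06. RSM19 was lowest at 2 h, at 78.3, 45.7 and 57.1 TPM in the control.

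Some of these genes lie beside genes that changed with them or against them in the meiotic control. MRPS12 and RSM19 are next to each other on the same strand. Their log2 fold changes in the meiotic control had opposite signs, 2.51 and −1.24 from 0.5 to 2 h and −1.20 and 1.97 from 2 to 6 h. Over the 33 comparisons their signs were opposite in 17. Of the 9 in which both were called, the 2 above had opposite directions and 7 had the same. In mitotic depletion MRPS12 had negative and RSM19 positive log2 fold changes at all 6 times, among them −0.69 and 0.57 at 15 min and −0.98 and 0.42 at 60 min, with 1 of the pair called at 15, 60 and 120 min. The ratio of MRPS12 to RSM19 in TPM ranged from 0.770 to 10.8 over the 74 conditions, highest in the meiotic control at 2 h, and their Spearman correlation over conditions was −0.741 in the meiotic (12 conditions) and 0.138, 0.471 and 0.450 in the mitotic (14), rescue (32) and activation domain (16) experiments. GYL1, beside MRPL24 on the same strand, had log2 fold changes of 2.97 and −3.89 in the meiotic control where MRPL24 had 3.04 and −2.47. CWC23, beside RSM23 on the same strand, had 2.16 and −2.77 where RSM23 had 2.39 and −2.05. In wild type of the rescue experiment from 2 to 6 h these pairs had opposite signs. MRPL24 had 2.19 and GYL1 −0.96 there, and RSM23 had 1.27 and CWC23 −0.80. MRPL28 rose by 2.42 from 0.5 to 2 h in the meiotic control, while its neighbours CMI8 and STP1 had −3.01 and −0.64. These neighbours were looked up after the members' values were seen, and the part of transcripts that run across both genes was not tested.

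Depletion of Ume6 in the meiotic experiment called few members at any time. At 0.5 h and at 3 h 0 of the 67 were called by edgeR (4 and 2 at an unadjusted p under 0.05), and DESeq2 called 0 and 1. By adjusted p the background was 0.0181% higher and 0.163% lower at 0.5 h, and 3.76% and 4.63% at 3 h. For the counts at an unadjusted p no share over all genes is given. At 2 h 0 were higher and 2 lower (background 1.85% and 2.9%). They were MRPL24, at 176, 182 and 108 TPM in depletion and 192, 329 and 337 in control cells (edgeR log2 fold change −0.87, SE 0.22, adjusted p = 0.0137), and RSM23, at 271, 254 and 213 and 296, 409 and 405 (edgeR log2 fold change −0.57, SE 0.12, adjusted p = 0.00269). With only the groups compared in the fit neither was called (edgeR adjusted p = 0.149 and 0.148). Only control replicate 1 came near the depletion libraries, and without it 6 members were called, while 1 was called without control replicate 2, control replicate 3 or depletion replicate 3.

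At 2.5 h 1 member was higher and 0 lower (background 3.35% and 4.92%): MRP4, the uS2m protein, at 59.5, 46.8 and 43.7 TPM in depletion and 34.5, 43.7 and 41.6 in control cells (edgeR log2 fold change 0.37, SE 0.11, adjusted p = 0.0311), with groups that touch, and not called with library totals. At 4.5 h 1 was higher and 0 lower (background 4.47% and 4.29%): MRPL37 (mL54), at 218, 212 and 210.3 and 167, 184 and 151 (edgeR log2 fold change 0.52, SE 0.13, adjusted p = 0.00883), where the groups did not overlap. Both of these calls were lost without some single libraries.

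At 6 h 6 members were lower and 1 higher in depletion cells (background 7.11% and 6.5%), with a median log2 fold change of −0.14. Their median TPM was 78.5, 65.3 and 64.4 in depletion and 86.7, 78.8 and 77.1 in control cells, and depletion replicate 1 lay within the control range. MRPL19, the uL11m protein of the GTPase-associated centre, was at 86.1, 66.8 and 68.4 TPM in depletion and 123, 106 and 103 in control cells (edgeR log2 fold change −0.51, SE 0.13, adjusted p = 0.0058). RSM19 was at 186, 131 and 153 and 255, 206 and 259 (edgeR log2 fold change −0.55, SE 0.16, adjusted p = 0.0193), and MRPS18 (uS11m) at 179.8, 163 and 169 and 247, 229.9 and 245 (edgeR log2 fold change −0.42, SE 0.12, adjusted p = 0.0166). The gene that was higher was RSM10, at 129.7, 126 and 129 and 98.7, 106 and 104 (edgeR log2 fold change 0.39, SE 0.12, adjusted p = 0.0295). None of these 4 overlapped, and with library totals 6 were lower and 0 higher. Leaving out depletion replicate 2 left 2 members called.

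When cells of the rescue experiment entered sporulation, the mRNA of nearly all members fell. In wild type 63 of the 67 were lower at 2 h than at 0 h and 0 higher, with a median log2 fold change of −0.88, where 33.8% of all 5527 genes were lower and 33% higher. Across the 67 genes the median TPM went from 65.8, 74.01 and 64.9 at 0 h to 48.96, 35.7 and 35.6 at 2 h, without overlap. The large subunit had 35 of 38 genes lower and the small subunit 26 of 27. The 4 not called were MRPL4, RSM10, MRPL37 and MRPL27, with log2 fold changes of 0.02, −0.29, −0.33 and −0.39.

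Among the largest falls, MRPL6 (uL6m) went from 117, 115 and 105 to 42.5, 37.2 and 35.1 TPM (edgeR log2 fold change −1.60, SE 0.17, adjusted p = 5.03e-13). MRPL17 (mL46) went from 74.4, 79.3 and 75.4 to 40.4, 21.6 and 20.8 (edgeR log2 fold change −1.49, SE 0.19, adjusted p = 1.28e-10), and MRPS9 (uS9m) from 186, 185 and 173 to 88.3, 64.4 and 53.8 (edgeR log2 fold change −1.44, SE 0.13, adjusted p = 2.20e-15). In each, every 2 h library lay below every 0 h library. MRPS12 and MRP7, the decoding and peptidyl transfer proteins, fell by 0.92 and 0.74 on the log2 scale. Over the same 2 h 56 of 104 cytosolic ribosomal protein genes rose and 5 fell, with a median of 0.52.

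Untethered cells, whose Ume6 carries T99N, showed this early fall as well. There 61 members were lower and 0 higher at 2 h (background 28.1% and 32.3%), with a median of −0.82, and the members' median TPM went from 58.95, 61.99 and 51.97 to 36.5, 29.6 and 30.2. In total 58 members were lower in both strains, 92.1% of those lower in wild type and 95.1% of those lower in the untethered strain, and RSM10 alone was called in neither. Since nearly all members were lower in each strain, most of this overlap follows from list size. MRPL17 fell most, from 58.95, 58.9 and 48.1 to 21.05, 12.3 and 14.1 (edgeR log2 fold change −1.78, SE 0.20, adjusted p = 5.65e-12). MRP2 and MRPL6 fell by 1.46 and 1.33, and MRPS12 and MRP7 by 1.13 and 0.60, on the log2 scale. The difference between the strains in this change was not tested. Nor was the 0 to 2 h change in the activation domain experiment. With untagged IME1 there, only the 0 h library that stands apart had a higher members' median TPM than the 2 h libraries.

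From 2 to 6 h the members of wild type cells parted from each other. By TMM scaling 31 rose and 9 fell (background 34.2% and 42.9%) with a median of 0.34. Library totals, which move the median of all genes by −0.33, gave 24 and 17 with a median of −0.01, RLE size factors gave 40 and 6, and the median change in TPM was −0.13. The direction of the group as a whole in this interval therefore depends on the scaling. The direction and call of MRPS17, MRPL37, MRP20, MRPL44, MRPL8 and MRPS16, described next, held under TMM, RLE and library totals.

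MRPS17, a protein bound to the small subunit RNA, was at 48.5, 31.5 and 35.3 TPM at 2 h, 41.8, 60.7 and 42.1 at 4 h and 712, 646 and 629.6 at 6 h (6 against 2 h, edgeR log2 fold change 4.59, SE 0.23, adjusted p = 4.72e-28). MRPL37 was at 109, 84.05 and 95.4, then 96.3, 111 and 96.2, then 772, 653 and 756 (edgeR log2 fold change 3.40, SE 0.17, adjusted p = 6.68e-28). MRP20, the uL23m protein at the rim of the exit tunnel, was at 74.6, 64.5 and 64.6 at 2 h and 358, 300.0 and 294 at 6 h (edgeR log2 fold change 2.72, SE 0.17, adjusted p = 7.42e-23). For MRPS17 and MRPL37 the rise therefore lay between 4 and 6 h, and all 3 genes were higher at 6 h than in any wild type library at 0, 2 or 4 h. MRP8 also rose, from 608, 548 and 632 to 1832, 1778 and 1848 (edgeR log2 fold change 2.10, SE 0.16, adjusted p = 4.19e-19). MRPL32 (bL32m), MRPL27 (mL41), MRP49 (mL61) and MRPL24 had log2 fold changes of 2.36, 2.29, 2.21 and 2.19, named after their values were seen.

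Other members fell over the same hours. MRPL44 (mL53) went from 50.9, 29.5 and 38.4 to 14.3, 16.4 and 15.8 TPM (edgeR log2 fold change −0.89, SE 0.31, adjusted p = 0.00856). MRPL8 (bL17m) went from 36.8, 24.96 and 23.8 to 13.04, 9.82 and 11.2 (edgeR log2 fold change −0.84, SE 0.22, adjusted p = 5.72e-04), and MRPS16 (bS16m) from 182, 156 and 163 to 65.6, 74.2 and 64.3 (edgeR log2 fold change −0.81, SE 0.16, adjusted p = 6.29e-06). The 6 h libraries lay below the 2 h libraries in each. MRPS12, at 68.8, 71.8 and 81.9 TPM, had a log2 fold change of 0.01, and MRP7 one of −0.26, whose call was lost with RLE size factors. NDT80, the activator of middle meiotic genes, was at 13.8, 12.1 and 11.9 TPM at 2 h and 1042, 927 and 858 at 6 h, and the cytosolic ribosomal protein genes went from 3.84 to 6.24% to 0.498 to 0.596% of all TPM. Their part in the members' changes was not tested.

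Untethered cells did not show these late rises. There 5 members rose and 0 fell from 2 to 6 h (background 15.9% and 17.7%), with a median of 0.07, and NDT80 stayed at 10.8 to 14.4 TPM at 6 h. The count ran to 3 without replicate 1 and to 8 without replicate 2 of the 6 h group. MRPS17 was at 29.6, 20.3 and 26.5 TPM and MRPL37 at 72.7, 81.4 and 84.2 at 6 h, where wild type at 2 h had at most 48.5 and 109. MRP8 still rose, from 723, 653 and 538 to 1098, 1114 and 1261 (edgeR log2 fold change 0.83, SE 0.16, adjusted p = 1.97e-05), and MRPL23 and MRPL4 rose by 0.56 and 0.52 on the log2 scale.

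With sfGFP-Ime1 tethered to the mutant Ume6, members were called in both directions, and more members and more of all genes were called with time. At 0 h 1 was higher and 13 lower than in untethered cells (background 19.1% and 16%, median −0.25), and the count fell to 7 without tethered replicate 2 and rose to 22 without tethered replicate 3. At 2 h 8 were higher and 10 lower (background 29% and 33.3%, median −0.02; library totals 17 and 3). At 4 h the counts were 20 and 10 (background 31.7% and 34.4%, median 0.13; library totals 25 and 6), and at 6 h 24 and 9 (background 33% and 37.4%, median 0.22; library totals 31 and 5). These shares of higher genes lie near or below the background at 2 and 4 h and slightly above it at 6 h. The shares of lower members lie well below the background at 2, 4 and 6 h. At 6 h the large subunit had 17 genes higher and 5 lower, and the small subunit 7 and 3.

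RSM23 was higher with the tether at all 4 times. It was at 76.2, 89.05 and 72.7 TPM against 57.5, 61.99 and 62.2 at 0 h (edgeR log2 fold change 0.35, adjusted p = 0.00815), at 72.8, 94.8 and 68.6 against 42.9, 30.4 and 33.3 at 2 h (edgeR 0.85, 8.12e-10) and at 88.6, 105 and 87.8 against 41.9, 36.1 and 30.1 at 4 h (edgeR 1.16, 1.38e-14). Tethered and untethered libraries did not overlap at these times. MRPL8 went the other way at all 4 times, with log2 fold changes of −0.81, −0.82, −1.10 and −0.88. At 4 h it was at 19.5, 19.3 and 15.1 TPM with the tether and 36.6, 40.2 and 24.7 without it, again without overlap. RSM10 was lower at all 4 times and MRP10 from 2 h on, by 0.95 and 0.79 at 2 h, 0.86 and 0.99 at 4 h and 0.71 and 0.61 at 6 h on the log2 scale.

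The late genes of wild type were raised in tethered cells at 6 h as well, at lower levels. MRPS17 was at 99.8, 159 and 63.1 TPM with the tether and 29.6, 20.3 and 26.5 without it (edgeR log2 fold change 1.98, SE 0.22, adjusted p = 2.90e-12). MRPL37 was at 287, 368 and 185 and 72.7, 81.4 and 84.2 (edgeR log2 fold change 1.72, SE 0.17, adjusted p = 3.45e-14), and RSM18 (bS18m) at 112.1, 105 and 112.2 and 51.4, 42.5 and 47.2 (edgeR log2 fold change 1.12, SE 0.14, adjusted p = 5.99e-11). For MRPS17 and MRPL37 replicate 2 was the highest and replicate 3 the lowest of the tethered libraries, which is also the order of NDT80, at 361, 467 and 158 TPM in these 3 libraries. RSM18 had another order. Over the 74 conditions the Spearman correlation with NDT80 was −0.078 for MRPS17 and −0.026 for MRPL37, and a link was not tested. MRPL39 (bL33m) and MRPL38 were lower, with log2 fold changes of −0.96 and −0.80.

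**Figure D5:**
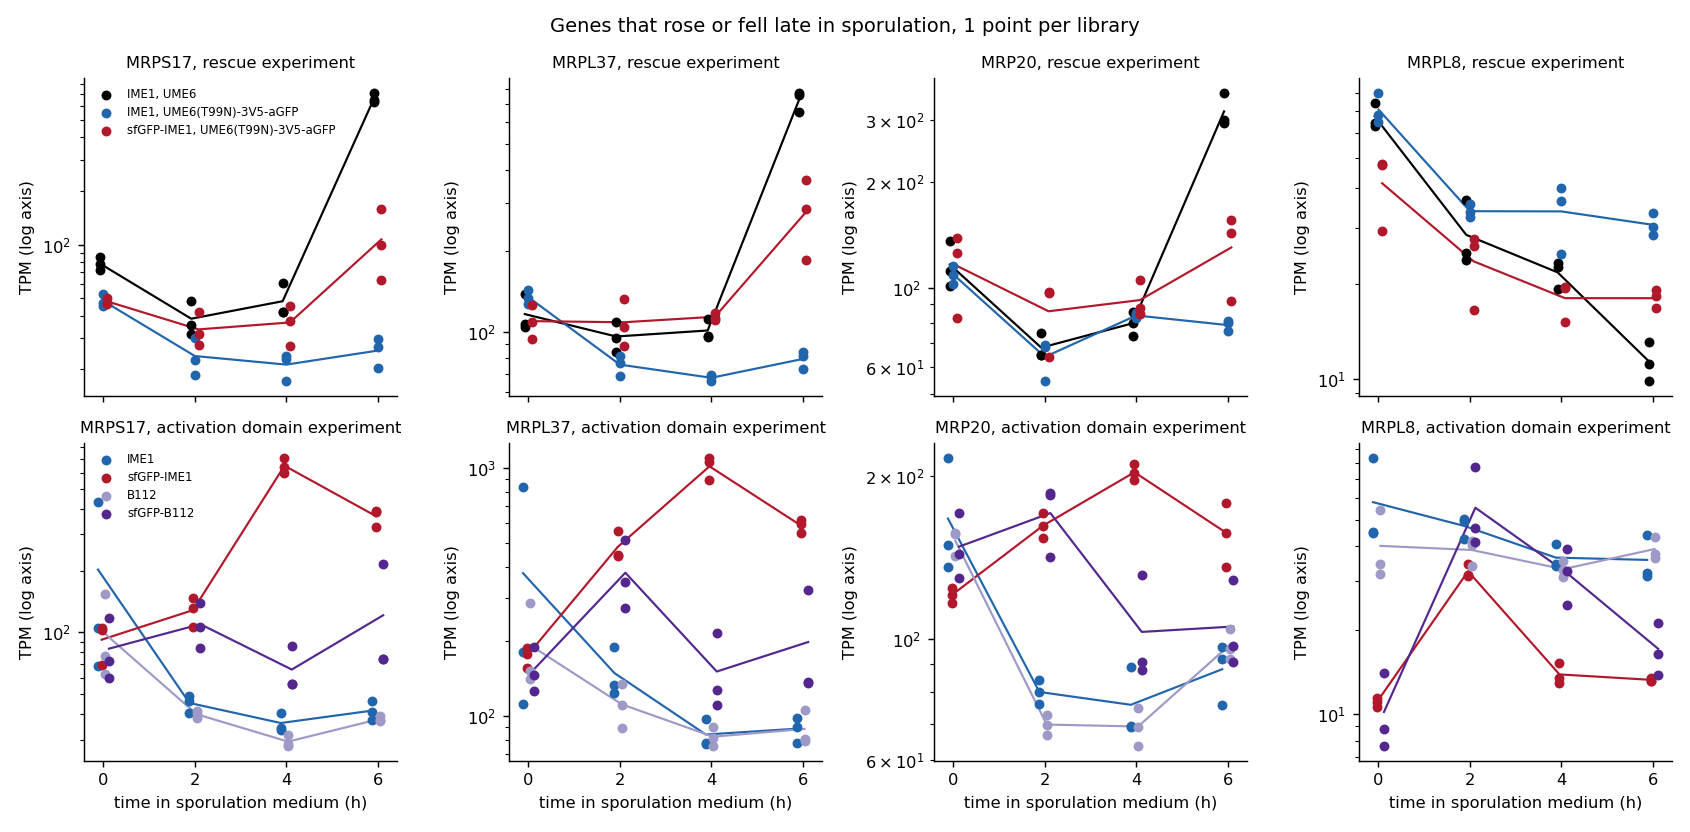
TPM (log axis) of MRPS17, MRPL37, MRP20 and MRPL8 against time in sporulation medium in 3 strains of the rescue experiment (upper panels) and the 4 strains of the activation domain experiment (lower panels), 1 point per library with lines through the means. MRPS17 and MRPL37 rose to 629.6 to 772 TPM in wild type at 6 h and to 599 to 1099 TPM with sfGFP-IME1 at 4 h, while the untethered and untagged strains reached at most 106 TPM at 4 and 6 h.

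In the activation domain experiment at 2 h, most members were higher in the tagged than in the untagged strains, with either activation domain. These were the largest positive medians of the 33 comparisons. With sfGFP-IME1 55 of the 67 members were higher and 2 lower than with untagged IME1, a median log2 fold change of 1.17 (background 32.6% higher and 31.2% lower of 5528 genes). With sfGFP-B112 60 were higher and 1 lower than with untagged B112, a median of 1.51 (background 24% and 24.4%). The members' median TPM at 2 h was 114, 120.3 and 137 with sfGFP-IME1 and 49.5, 56.98 and 52.2 with IME1, and 176, 117 and 135 with sfGFP-B112 and 46.8, 42.02 and 44.1 with B112. In both pairs every tagged library lay above every untagged one. The large subunit had 31 and 35 of 38 genes higher, and the small subunit 23 and 24 of 27. Library totals gave 55 and 61 higher and 0 and 0 lower.

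All 55 members that were higher with sfGFP-IME1 were among the 60 higher with sfGFP-B112 (all of the former and 91.7% of the latter), and the comparisons share no library. Since nearly all members were higher with sfGFP-B112, most of this overlap follows from list size, and no overlap over all genes is given. The 7 higher with neither were MRP10, MRP4, MRP8, MRPL11, MRPL39, MRPL8 and RSM10. With sfGFP-IME1, MRPL4 was at 216, 164 and 187 TPM against 35.9, 31.6 and 42.2 (edgeR log2 fold change 2.35, SE 0.27, adjusted p = 2.70e-09), MRPL23 at 432, 431 and 446 against 90.9, 85.3 and 92.96 (edgeR log2 fold change 2.26, SE 0.19, adjusted p = 2.91e-12) and MRPL13 (mL50) at 214, 228 and 236 against 55.8, 59.2 and 56.03 (edgeR log2 fold change 1.96, SE 0.21, adjusted p = 4.33e-10). With sfGFP-B112, MRPL49 was at 267, 156 and 195 against 42.4, 30.6 and 29.8 (edgeR log2 fold change 2.41, SE 0.30, adjusted p = 2.48e-08), MRPL20 (mL58) at 253, 132 and 162 against 42.7, 30.6 and 30.9 (edgeR log2 fold change 2.21, SE 0.34, adjusted p = 1.21e-06) and MRP13 (mS44) at 133, 81.4 and 103 against 24.3, 20.6 and 16.8 (edgeR log2 fold change 2.19, SE 0.18, adjusted p = 1.49e-12). In all 6 genes tagged and untagged libraries were apart, and replicate 1 was the highest sfGFP-B112 library in the last 3.

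The genes for proteins of the ribosome's active sites moved with the group. MRPS12 was at 415, 406 and 429 TPM with sfGFP-IME1 and 105, 142 and 132 with IME1 (edgeR log2 fold change 1.70, SE 0.15, adjusted p = 9.93e-12), and at 457, 262 and 340.3 with sfGFP-B112 and 117, 94.2 and 117 with B112 (edgeR log2 fold change 1.51, SE 0.15, adjusted p = 3.44e-10). MRP7 was at 145, 154 and 171 and 59.02, 76.7 and 75.4 (edgeR log2 fold change 1.13, SE 0.13, adjusted p = 1.17e-09), and at 258, 176 and 206 and 68.2, 51.3 and 57.9 (edgeR log2 fold change 1.68, SE 0.13, adjusted p = 2.70e-13). The tagged libraries of both genes lay above the untagged ones.

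The genes that were lower at 2 h were few and weakly so. With sfGFP-IME1 they were MRPL8, at 31.5, 31.4 and 34.7 TPM against 49.5, 50.2 and 42.6 (edgeR log2 fold change −0.57, SE 0.20, adjusted p = 0.0121), and MRP4 (log2 fold change −0.46, edgeR adjusted p = 0.0485, and 0.0501 with a replicate block). With sfGFP-B112 it was MRP8, at 434, 579.9 and 549.9 against 488, 771 and 639.9 (edgeR log2 fold change −0.44, SE 0.17, adjusted p = 0.0336), whose groups overlap. None of the 3 was called with library totals.

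Genes of the same process outside the list were also higher in the tagged strains at 2 h. Of 13 mitochondrial ribosomal protein genes with other names, 13 were higher with sfGFP-IME1 and 13 with sfGFP-B112, with medians of 1.50 and 1.74. Of 15 mitochondrial translation factors, 14 and 14 were higher, of 13 mitochondrial tRNA synthetases 11 and 13, and of 15 translational activators 7 and 10, with 3 and 1 lower. Of 35 nuclear respiratory chain genes 17 and 28 were higher, with medians of 0.45 and 0.89. The cytosolic ribosomal protein genes went the other way, with 101 and 44 of 104 lower and medians of −2.16 and −0.85.

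The same lists were also called in the mitotic control and on entry into sporulation. In the mitotic control from −30 to 120 min 12 of the 13 other mitochondrial ribosomal protein genes, 11 of 13 tRNA synthetases and 32 of 35 respiratory chain genes rose, with medians of 0.61, 0.58 and 0.67. In wild type from 0 to 2 h 13 of the 13, 13 of 15 activators and 24 of 35 respiratory chain genes fell, with medians of −0.90, −0.61 and −0.80. Fewer of the translation factors (7 of 15) and tRNA synthetases (5 of 13) fell there. VAR1, MTG3 and DMR1 were looked for by symbol and not matched.

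At 0 h, before sporulation, the number of members called in each direction in the tagged strains depended on 1 library or on the scaling. With sfGFP-IME1 3 were higher and 37 lower (background 27.7% and 35.4%, median −0.59), but without IME1 replicate 2, which stands apart, 12 were higher and 20 lower with a median of −0.13, and with only these 2 groups in the fit 1 was higher and 10 lower. With sfGFP-B112 6 were higher and 23 lower (background 28.3% and 31.6%, median −0.32), and with library totals, which move the median of all genes by 0.49, 17 and 5 with a median of 0.16. MRPL8 was at 11.4, 11.03 and 10.6 TPM with sfGFP-IME1 and 45.04, 83.4 and 44.9 with IME1 (edgeR log2 fold change −2.38, SE 0.21, adjusted p = 4.93e-12), and at 8.79, 14.02 and 7.63 with sfGFP-B112 and 54.2, 31.95 and 34.5 with B112 (edgeR log2 fold change −2.36, SE 0.22, adjusted p = 8.65e-12). Neither pair overlapped, and without the library that stands apart the first log2 fold change was −2.25. MRPL39 was at 69.5, 92.4 and 61.7 with sfGFP-IME1 and 132, 696 and 149 with IME1, the highest value again in that library, and its log2 fold change was −2.00 with and −1.13 without it. MRPL28 was lower with both tags, with log2 fold changes of −2.00 (−1.55 without that library) and −1.74.

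Other members were already higher at 0 h. MRPL23 had log2 fold changes of 1.24 with sfGFP-IME1 (1.67 without IME1 replicate 2) and 1.25 with sfGFP-B112, the latter from 39.7, 32.2 and 28.2 to 122, 90.2 and 96.6 TPM. MRP13 was at 20.5, 17.5 and 22.4 TPM with sfGFP-B112 and 7.38, 7.31 and 5.02 with B112 (log2 fold change 1.23), and MRPL13 had 1.01. The tagged and untagged B112 libraries of MRPL23 and MRP13 did not overlap.

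At 4 h the 2 activation domains gave counts that shared only some members. With sfGFP-IME1 32 were higher and 5 lower (background 31% and 38.8%, median 0.44), while library totals, which move the median of all genes by −0.22, gave 17 and 5 and the median change in TPM was −0.07. With sfGFP-B112 35 were higher and 1 lower (background 21% and 24%, median 0.54), and 18 and 0 without sfGFP-B112 replicate 1. Of the members higher with either, 18 were shared, 56.2% of the first and 51.4% of the second, with no overlap over all genes to set beside it. The members' median TPM was 44.8, 49.5 and 46.4 with sfGFP-IME1 and 45.1, 41.6 and 40.8 with IME1, which overlap, and 85.1, 55.9 and 61.1 with sfGFP-B112 and 33.8, 36.6 and 37.8 with B112, which do not.

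With sfGFP-IME1 the genes that rose late in wild type were the highest at 4 h. MRPS17 was at 599, 639 and 708 TPM against 40.6, 34.3 and 33.5 (edgeR log2 fold change 4.68, SE 0.39, adjusted p = 5.41e-13), and MRPL37 at 894, 1055 and 1099 against 77.8, 97.1 and 76.6 (edgeR log2 fold change 4.10, SE 0.39, adjusted p = 1.35e-11). MRP49 was at 136, 171 and 147 against 40.3, 39.1 and 29.1 (edgeR log2 fold change 2.57, SE 0.32, adjusted p = 6.32e-09), and MRP8 at 2264, 2673 and 2396 against 1008, 909 and 739 (edgeR log2 fold change 1.98). Of the 32 members higher here, 25 were also among the 31 that rose from 2 to 6 h in wild type (78.1% and 80.6%). The overlap over all genes is not given. NDT80 was at 888 to 1013 TPM in these sfGFP-IME1 libraries and at 10.6 to 13.98 with IME1, and its part was not tested. The members that were lower included MRP4, at 11.99, 12.1 and 13.3 against 47.6, 29.8 and 45.6 (log2 fold change −1.19), MRPL44 (−1.16) and MRPL6 (−0.91).

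With sfGFP-B112 the largest rises at 4 h were of another kind and smaller: MRPL15 (mL57), RSM27 and MRP13 had log2 fold changes of 1.12, 1.12 and 1.11. MRPS17 was at 85.7, 55.9 and 55.9 TPM with sfGFP-B112 and 28.6, 31.5 and 27.8 with B112. NDT80 was at 57.6, 11.1 and 12.9 TPM in the sfGFP-B112 libraries, so replicate 1 was the highest in both genes, and a link between them was not tested. MRP8 was lower, with a log2 fold change of −0.51, and MRP7 and MRPS12 had 0.62 and 0.43.

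At 6 h, with sfGFP-IME1, 29 members were higher and 4 lower (background 30.1% and 31%, median 0.39), and with library totals 11 and 4, where the median change in TPM was −0.36. MRPS17 was at 387, 392 and 326 TPM against 46.4, 40.7 and 37.5 (edgeR log2 fold change 3.90, SE 0.38, adjusted p = 3.77e-11), MRPL37 at 618, 549 and 592 against 89.8, 98.04 and 77.9 (log2 fold change 3.48), and MRPL27 had a log2 fold change of 2.79. MRPS17 and MRPL37 were above the untagged strain in every library. The lower members were MRPL8, MRPL44, MRPL3 (mL44) and MRP7, with −0.68, −0.61, −0.55 and −0.34.

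With sfGFP-B112 at 6 h, 16 were higher and 4 lower (background 28.5% and 31.1%, median 0.26). These counts were 25 and 6 without the IME1 library at 0 h in the fit, and 32 and 6 with only the groups compared. MRPS17 was at 215, 74.3 and 73.7 TPM against 37.3, 38.9 and 37.1 (edgeR log2 fold change 1.60, SE 0.35, adjusted p = 2.02e-04), and MRPL37 at 322, 137 and 135 against 106, 78.98 and 80.5 (edgeR log2 fold change 1.09, SE 0.36, adjusted p = 0.00924), a call lost without replicate 1 of sfGFP-B112 (edgeR adjusted p = 0.220). Replicate 1 was the highest for both genes and for NDT80, at 255, 42.9 and 66.9 TPM, and a link to NDT80 was not tested. MRPL8 was lower again, at 21.2, 16.4 and 13.8 against 36.5, 43.3 and 37.68 (log2 fold change −1.28), and RSM23 was higher (0.93).

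The effects of the tag on IME1 and on B112 were compared as an interaction. At 2 h 0 members had a higher log2 fold change with IME1 and 4 a lower one (background 5.5% and 3.06%). Library totals called 0 there, and 2 were called without sfGFP-B112 replicate 1. A lower log2 fold change is not always a smaller effect, as it can be a larger fall. At 4 h the numbers were 15 higher and 9 lower (background 22.5% and 24.2%), turned to 5 and 19 by library totals, which move the median of all genes by −0.58. At 6 h they were 15 and 5 (background 23.3% and 19.9%), and 6 and 6 by library totals. MRPS17 and MRPL37 led at 4 h, with differences of 3.82 and 3.54 on the log2 scale.

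Tethered and untethered strains of the same labelled genotypes were grown in both the rescue and the activation domain experiment, with IME1 at its own locus in the first and at HIS3 in the second. At 2 h their members' median TPM was 35.3, 41.6 and 34.1 (tethered) and 36.5, 29.6 and 30.2 (untethered) in the rescue and 114, 120.3 and 137 and 49.5, 56.98 and 52.2 in the activation domain experiment. The libraries overlapped in the rescue and not in the activation domain experiment, and NDT80 in tethered cells at 2 h was at 10.51 to 15.4 TPM in the first and 158 to 182 in the second. Of the 20 members higher with the tether at 4 h in the rescue experiment, 19 (95.0%) were among the 55 higher at 2 h in the activation domain experiment, 34.5% of the latter. At 6 h 18 members were higher in both, of 24 in the rescue and 29 in the activation domain experiment. Since most members were higher at 2 h in the activation domain experiment, much of the first overlap follows from list size. Neither overlap is set against all genes. The difference between the experiments was not tested.

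Over the 33 comparisons single members differed in how often they were called. RSM23 was higher in 14, and MRPL13, MRPL23 and MRPS9 in 13 each. MRP4 was lower in 15, MRPL28 in 13 and MRPL8 in 14, with 0 comparisons in which MRPL8 was higher. Some of these comparisons share libraries and are not separate observations. Among the late genes, MRPS17 rose by 4.59 in wild type from 2 to 6 h while its neighbours YMR187C and GCV2 had log2 fold changes of −0.06 and −0.94, and MRPL37's neighbours REI1 and SDH8 had −0.95 and 0.16. MRPL32, by contrast, lies beside CDC10, which had 4.38 in that comparison.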

How the data were processed

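Poly-A RNA of the 222 libraries was sequenced in single-end, directional libraries. The authors deposited, for each experiment, a table of kallisto estimated counts and a table of TPM over the SK1 transcriptome; the labels' processing notes also name HISAT2, SAMtools and StringTie. Versions, and whether kallisto used strand, are not given in the sources used here, so reads of overlapping genes on opposite strands may not be separable. Groups were taken from the sample labels and columns from their names, and 0 columns were left unmapped.

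The members and gene lists were chosen with earlier results of these data known. Members were found by symbol in the mitotic count table and matched by SK1 identifier; universal protein names came from RefSeq annotation of the S288C assembly R64. Estimated counts were rounded and tested with edgeR 4.0.16 in R 4.3.3: filterByExpr, TMM scaling, 1 model per experiment with a mean for each strain and time, the quasi-likelihood F test, and Benjamini-Hochberg adjustment over all genes tested (5488 mitotic, 5526 meiotic, 5527 rescue, 5528 activation domain) with 0.05 as threshold. Standard errors were derived from the F statistic. The deposited TPM, which the authors normalised for length and library size, give the values of single genes and have no test. TMM scaling takes most genes as unchanged, and a few abundant genes can shift TPM or library totals, which can move the sign of small group changes.

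Named were, in each comparison, the 3 members with the largest log2 fold change in each direction among those called, a log2 CPM averaging 2 or more and groups that do not overlap; the 5 highest and 5 lowest in mean TPM; members called against the majority; and MRPS12 and MRP7. Other genes named were chosen after their values were seen. Same-numbered replicates were taken as paired where all 3 correlations of their deviations exceeded 0.1, which held for the mitotic control over time (0.43 to 0.68) and sfGFP-B112 at 0 h (0.34 to 0.46) of 33 comparisons. Alternatives were DESeq2 1.42.0, RLE size factors, no filter, only the groups compared, a replicate block, TMM-scaled CPM for medians and each library left out in turn, and, chosen after seeing the data, library totals and leaving out the IME1 library at 0 h that stands apart. Scripts were tested on data simulated for mitotic depletion against control at 15 min. Of 100 genes given a 1.5-fold change 84% were called, and of 100 given a 2-fold change 98%. Of the genes called in this simulation 9.9% were false, a larger share than the threshold on the adjusted p is meant to allow. Left out were 2 rescue libraries (IME1; UME6-3V5, replicate 1, at 0 and 2 h) whose 2 tables match only when exchanged. Promoters and protein sequences were not analysed here.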

Additional observations from a re-analysis of the deposited data

Results flagged for a closer look

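The effect of sfGFP on IME1 and its effect on B112, each measured against the untagged strain, differed by edgeR's interaction test with Benjamini-Hochberg adjustment for 4 members at 2 h, 24 at 4 h and 20 at 6 h. Differences are given as the IME1 effect minus the B112 effect on the log2 scale, so a negative one can also be a larger fall with IME1.

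At 2 h the difference was −1.06 for MRPL38 (uL14m), −0.94 for MRPL1 (uL1m), −0.89 for MRPL8 (bL17m) and −0.55 for MRP7 (bL27m), all lower with IME1. None of these 4 was called with library totals.

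At 4 h the members with a higher log2 fold change with IME1 were led by MRPS17 at 3.82, MRPL37 at 3.54 and MRP8 at 2.49. Those with a lower one included MRPL44 at −1.77, MRPL15 at −1.30, MRPL17 at −1.20, MRP13 at −1.13 and MRP4 at −1.08. MRPL6 at −1.01, MRPS5 at −0.85, MRP7 at −0.57 and RSM28 at −0.44 were also among them. NDT80 was at 888 to 1013 TPM in the sfGFP-IME1 libraries at this time and at 11.1 to 57.6 in the sfGFP-B112 libraries, and its part in these differences was not tested.

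At 6 h MRPL37, MRPS17 and MRPL27 had higher log2 fold changes with IME1, with differences of 2.39, 2.31 and 2.18. MRPL44, MRPL23, MRP13, MRP7 and MRPL40 had lower ones, with differences of −0.99, −0.91, −0.80, −0.62 and −0.58.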

How the results depend on the processing

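Scaling by RLE, testing genes of low count too and a replicate block moved no count of members by more than 1.5 times in 36 comparisons. The block, paired in 2 of 33 comparisons by the check of deviations, kept the counts there (49 and 1, and 6 and 23) and ended a single call among the named members, that of MRP4 with sfGFP-IME1 at 2 h (adjusted p = 0.0501). With only the groups compared in the fit, the members called came to 21 in ume6Δ, 40 at 15 min, 2 at 60 min, 0 at 120 min, 0 at each of 2, 2.5 and 4.5 h of meiotic depletion, 6 and 10 for the tether at 0 and 2 h, 11 for sfGFP-IME1 at 0 h, 17 and 38 for sfGFP-B112 at 0 and 6 h, and 36 for the difference at 6 h. DESeq2 called 3 at 60 min and 1 at 3 h of meiotic depletion.

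With library totals, chosen after seeing the data, the counts were 0 for meiotic depletion at 2.5 h, 23 in the meiotic control from 2 to 2.5 h, 22 and 15 for sfGFP-IME1 at 4 and 6 h, 22 for sfGFP-B112 at 0 h, and 0, 24 and 12 for the differences at 2, 4 and 6 h. Totals moved the median of all genes by −0.58 to 0.49 against TMM. Without the IME1 library at 0 h that stands apart, also chosen afterwards, sfGFP-B112 at 6 h had 31.

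Between TPM and TMM-scaled counts the sign of the members' median change turned from 0.17 to −0.0823 in the meiotic control from 2 to 2.5 h, from 0.28 to −0.0168 for the tether at 2 h, from −0.0689 to 0.44 and −0.36 to 0.39 for sfGFP-IME1 at 4 and 6 h, from −0.13 to 0.36 in wild type from 2 to 6 h, from −0.13 to 0.0445 for meiotic depletion at 4.5 h and from 0.0538 to −0.31 for sfGFP-B112 at 0 h. In meiotic depletion it turned at 2.5 and 3 h too, by less than the spread between libraries. With its sign kept, it moved to 0.49 in the mitotic control over time, 0.23 in the meiotic control from 0.5 to 2 h, 0.13 and 0.22 for the tether at 4 and 6 h and 0.54 for sfGFP-B112 at 4 h. The cause was not tested.

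Leaving out 1 library at a time gave 20 to 40 members in ume6Δ, 1 to 14 at 15 min, 0 to 12 at 30 and at 60 min, 0 to 3 at 120 min, 1 to 6 for meiotic depletion at 2 h, 0 to 1 at each of 2.5, 3 and 4.5 h and 2 to 7 at 6 h, 3 to 8 in untethered cells from 2 to 6 h, 7 to 22 for the tether at 0 h, 18 to 35 for sfGFP-B112 at 4 h, and 2 to 4 and 20 to 24 for the differences at 2 and 4 h. Among members named by the rule and called, none changed direction under any setting. Of their values, 89 of 1384 under other settings and 180 of 1386 with a library left out lost their call. Other named members were not checked in this way. The counts of members under other settings or with a library left out have no share over all genes beside them. A member that was not called at this depth and number of libraries is not shown to be unchanged. The promoter description was not run.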
